A study of Mus musculus with 60 samples.

Results

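Inguinal white adipose tissue of 5 Giprfl/fl mice given mGIPR-Ab/P1 was compared directly with that of 5 GiprSyn-/- mice given vehicle, by bulk RNA sequencing. These 10 libraries, of 60 in the series, were chosen by their titles, and 13604 of the 54343 genes in their table were tested, those that reached 1 FPKM in at least 5 of the 15 inguinal fat libraries of the line. FPKM counts fragments per kilobase of transcript and per M fragments of the library. In mGIPR-Ab/P1 a GLP-1 peptide is joined to an antibody that binds the receptor for GIP, the product of Gipr. Giprfl/fl denotes Gipr alleles flanked by loxP sites. GiprSyn-/- denotes loss of Gipr in the cells in which Syn is active, after the synapsin promoter that is used to direct Cre to neurons, and these mice received vehicle and no conjugate. The labels name no Cre strain and do not say whether the floxed mice carried Cre. A group of 5 further Giprfl/fl mice given vehicle is used as the common point from which both depart. All mice were diet-induced obese, and strain background, sex, age, dose and length of treatment are not stated there. The titles call the 5 libraries of a group biological replicates. The 2 groups compared differ both in genotype and in treatment, and the samples include no knockout that received the conjugate. The direct comparison therefore asks how far the fat of treated mice and that of untreated knockouts lay apart.

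Inguinal fat is a subcutaneous depot of the mouse, whose adipocytes take up fatty acids released from lipoproteins, make fatty acids and glycerol from glucose, and store both as triglyceride. Between the adipocytes lie fibroblast-like progenitors that lay down the collagen matrix, macrophages, blood vessels and nerve fibres with their Schwann cells. GIP and GLP-1 are gut hormones released on feeding. The GLP-1 receptor in the brain is known for lowering food intake, and the GIP receptor is found both in brain and in fat.

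The targeted receptor gene was low in all groups. Gipr stood at 3.57, 4.01, 6.57, 5.60 and 5.91 FPKM in the conjugate libraries, 3.20, 4.44, 5.37, 4.43 and 2.57 FPKM in the GiprSyn-/- libraries and 7.13, 5.02, 6.03, 7.46 and 5.12 FPKM in the vehicle libraries. The groups overlapped, and the direct difference was 0.30 ± 0.18 on the log2(FPKM + 1) scale (SE), with a 95% interval of -0.08 to 0.68 and an adjusted p of 0.812. All fold changes below are differences of mean log2(FPKM + 1), which understate the change of genes near 0. Syn1, a neuronal gene, lay between 0.170 and 0.432 FPKM over the 10 libraries, so that neuronal transcripts were scarce and the loss of Gipr in neurons cannot be read from this tissue. Glp1r was at most 0.0352 FPKM in the conjugate libraries and 0.0907 FPKM in the knockout libraries, and Wnt1 at most 0.123 and 0.0921 FPKM, and neither was tested.

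Transcripts of B cells and of skeletal muscle varied widely between the libraries of both groups. The 15 B cell markers summed to 1026, 145, 299, 92.2 and 235 FPKM in conjugate replicates 1 to 5, 1071, 244, 202, 257 and 1148 FPKM in GiprSyn-/- replicates 1 to 5, and 54.2 to 359.7 FPKM in the vehicle libraries. Conjugate replicate 1 and knockout replicates 1 and 5 stood far above the others of their groups, as they did for markers of T cells and of lymph node stroma. The 15 skeletal muscle markers summed to 2284, 773, 1622, 111 and 1398 FPKM in the conjugate libraries, 355, 216, 352, 106 and 68.4 FPKM in the knockout libraries and 109 to 917 FPKM in the vehicle libraries, so that 4 of 5 conjugate libraries lay above all 5 knockout libraries. No muscle marker and no B cell marker was at 0 in all 10 libraries. Adipocyte markers were abundant in every library, summing to 19481 to 33651 FPKM with the conjugate and 18588 to 38281 FPKM in knockouts. The estimated depth was 37.8 ± 10.9 M fragments with the conjugate and 39.97 ± 13.8 M in the knockout (SD, n = 5 each, M = 1e6, exact permutation p = 0.643, two-sided). Replicate 5 of each group, whose library numbers belong to a higher series than those of the other 8, reached 56.7 M with the conjugate and 64.2 M in the knockout, against 29.9 to 37.4 M in the 8. No p of this test can go below 0.00794. Mitochondrial transcripts made up 7.89% ± 1.26 of the summed FPKM with the conjugate and 9.41% ± 1.83 in the knockout (exact permutation p = 0.175). In bulk tissue, fewer cells of a type and less RNA per cell cannot be told apart.

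**Figure D1:**
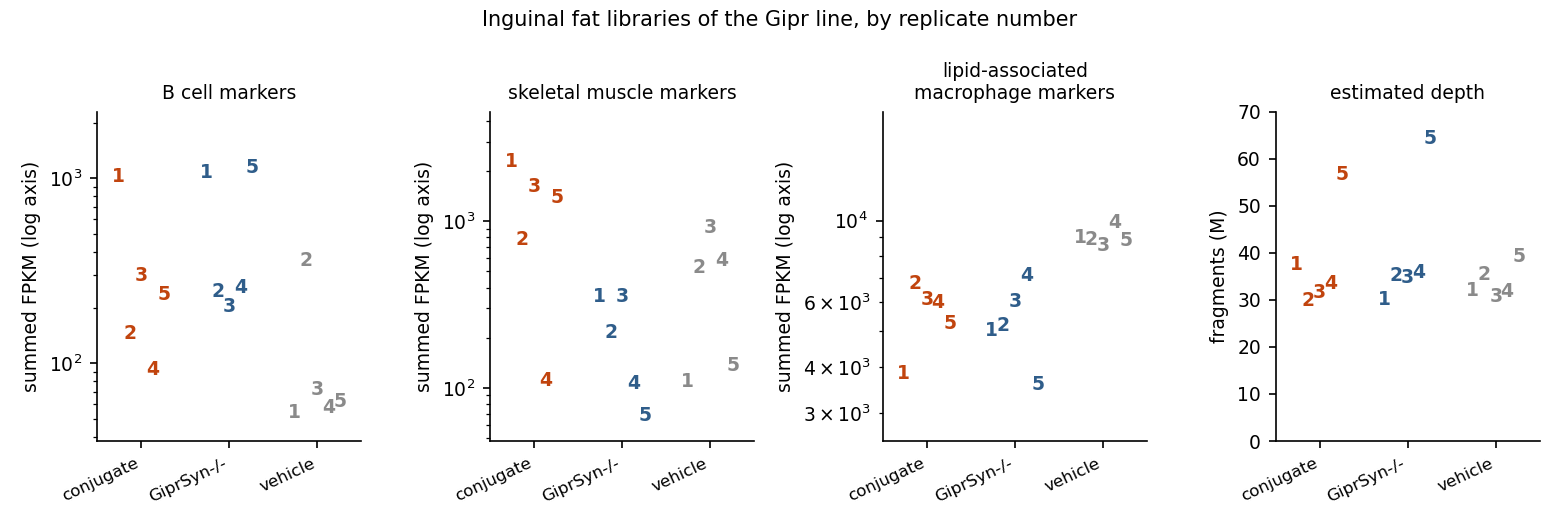
Summed FPKM of 3 marker lists (log axes) and estimated depth (M fragments) for each library, drawn as its replicate number, in the conjugate, GiprSyn-/- and vehicle groups. The list of lipid-associated macrophages shares Lpl with the adipocyte markers. B cell markers were highest in conjugate 1 and knockouts 1 and 5, muscle markers were highest in conjugate libraries 1, 3 and 5, and the number 5 libraries of both groups were the deepest.

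Set directly against each other, the fat of conjugate-treated mice and that of GiprSyn-/- mice differed at a single gene. The spread in this fit was shared by the 3 groups of the line, vehicle included. With only the 2 groups compared, no gene was called. Of 13604 genes, 1 was called, that is, passed an adjusted p of 0.05 (limma, Benjamini-Hochberg over all genes tested), which is 0.00735% of those tested. That gene, Thbs1, was higher with the conjugate. At an unadjusted p under 0.05 there were 770 genes, 5.66% of those tested. With the replicate number as a block there were 1125. In a fit of only the 2 groups with that block, chosen after seeing the data, there were 2103. Neither blocked fit called a gene, and the shares and intervals below come from the fit without the block. In that unblocked fit the number was 1600 without conjugate replicate 1 and 1553 without knockout replicate 3. It was 411 without conjugate replicate 3 and 450 without knockout replicate 1. For 64 genes (0.47%) the 2 groups showed no overlap, with 52 (0.382%) higher and 12 (0.0882%) lower under the conjugate. The same fit called 955 genes (7.02%) for the conjugate against vehicle, 579 (4.26%) higher and 376 (2.76%) lower, and 1670 genes (12.3%) for GiprSyn-/- against vehicle, 899 (6.61%) higher and 771 (5.67%) lower. After median-of-ratios scaling the splits were 274 higher and 491 lower for the conjugate and 588 higher and 1014 lower for the knockout, so the balance of rises and falls against vehicle turned with the scaling. With the B cell score, the mean log2(FPKM + 1) of the B cell markers in each library, as a term, 871 genes were called for the conjugate and 256 for the knockout, so the larger count in the knockout did not hold there. The score ran from 2.04 to 5.75 with the conjugate, 3.46 to 5.94 in the knockout and 1.35 to 4.38 with vehicle. It thus followed the knockout contrast in part, and a fit with this term cannot fully separate the 2. With the muscle and B cell scores both as terms, 704 genes were called for the conjugate and 33 for the knockout, while weighting the libraries (array weights) gave 3618 and 3723. Leaving out 1 library at a time gave 420 to 1229 calls for the conjugate. Those that moved by over 1.5 times were 528, 530 and 420 without conjugate replicates 1, 4 and 5, and 447, 532, 501 and 476 without vehicle replicates 1, 2, 4 and 5. For the knockout the range was 712 to 2127, and those that moved as far were 939 and 968 without knockout replicates 1 and 5, and 712, 1063, 945 and 891 without vehicle replicates 1, 3, 4 and 5. The counts of list members called against vehicle given below rest on these calls. Both of those comparisons share the 5 vehicle libraries, so their values are set side by side below and no relation between them is given as a result.

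Missing the threshold does not show that the groups were the same, so the intervals of the direct difference matter more than the count. For 9369 genes (68.9%) the whole 95% interval lay within 1.5-fold in either direction, and for 12263 genes (90.1%) it lay within 2-fold. The median interval reached 0.31 to either side of the estimate. The estimate itself was 1.5-fold or more for 530 genes (3.9%), 228 (1.68%) higher and 302 (2.22%) lower with the conjugate. Among the 955 genes called for the conjugate against vehicle, 75.2% had a direct interval within 1.5-fold and 95.4% within 2-fold, and none was called directly (limma). Among the 1670 genes called for the knockout against vehicle the shares were 65.6% and 88.3%, and 1 was called directly. A direct difference of 1.5-fold or more was found for 20 genes (2.09%) of the conjugate set and 129 genes (7.72%) of the knockout set. Each set was chosen on values of 1 of the groups compared, so these shares describe the sets and carry no test.

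**Figure D2:**
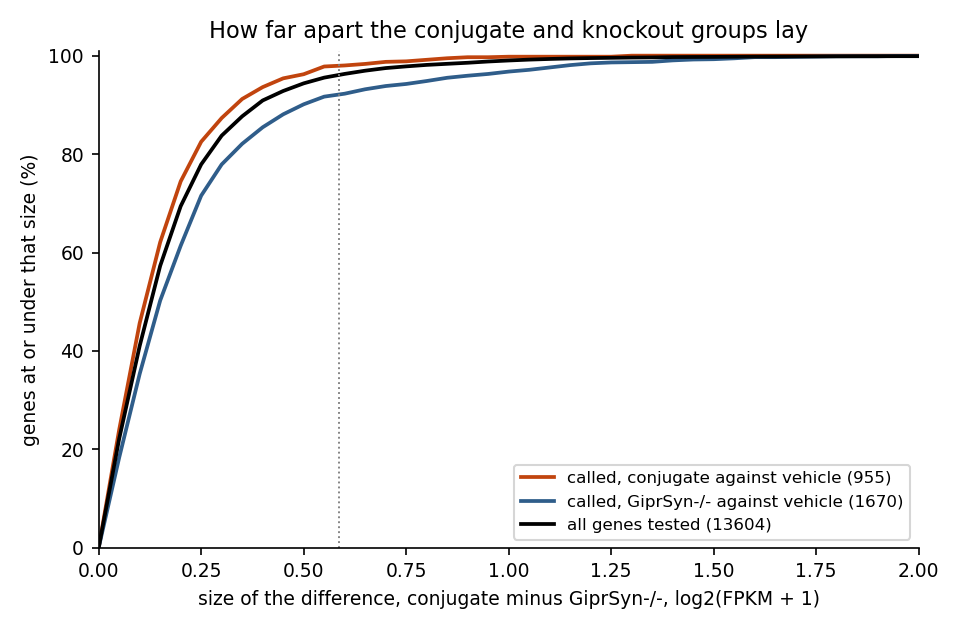
Cumulative share of genes (%) by the size of the difference between the conjugate and GiprSyn-/- groups, in log2(FPKM + 1) and without sign, for genes called for the conjugate against vehicle, for GiprSyn-/- against vehicle, and for all genes tested. The dotted line marks 1.5-fold, which 20 of 955, 129 of 1670 and 530 of 13604 genes reached.

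Thbs1 encodes thrombospondin 1, a large secreted glycoprotein of the matrix that binds cell-surface receptors such as CD36 and CD47 and activates latent TGF-beta. It stood at 21.2, 39.6, 27.7, 37.6 and 40.7 FPKM in the conjugate libraries, 9.81, 11.8, 14.05, 15.6 and 7.72 FPKM in the GiprSyn-/- libraries and 26.9, 26.8, 23.5, 23.9 and 20.03 FPKM in the vehicle libraries. Every conjugate library lay above every knockout library, and the vehicle libraries lay above all knockouts and within the range of the conjugate group but for 1 library below it. Means were 33.4 ± 8.53 FPKM with the conjugate, 11.8 ± 3.17 FPKM in the knockout and 24.2 ± 2.81 FPKM with vehicle (SD, n = 5 each). The direct difference was 1.42 ± 0.19 (SE, 95% interval 1.01 to 1.84, adjusted p = 0.0348, limma). Against vehicle, Thbs1 fell in the knockout by 1.01 (adjusted p = 0.00607), while the conjugate group stood 0.41 above vehicle without passing (adjusted p = 0.206). The direct difference kept its sign in all 34 alternative fits, between 1.21 and 1.57, and passed in 10 of them.

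The call on Thbs1 depended on the fit, and it was lost with only the 2 groups compared. Same-numbered libraries of the 2 groups deviated together. A block on the replicate number also tied the vehicle libraries by number, and their pairing was not checked. With that block the difference was 1.42 while the adjusted p was 0.0812 (limma). It was 0.185 with the muscle score, made likewise from the muscle markers, as a term, where the difference was 1.48, and 0.0273 with the B cell score, where it was 1.28. Without the replicate 5 libraries of the higher number series the difference was 1.21 and the adjusted p 0.162. Leaving out 1 library at a time, the call held without conjugate replicate 1 or knockout replicate 4 and was lost without any other single library of the 15, with adjusted p between 0.00504 and 0.177.

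Thbs2, Myoc and Igfbp3, which encode secreted proteins, were higher in every conjugate library than in every knockout library but did not pass. They are named among the genes with the smallest p, a choice made after values were seen. Thbs2, thrombospondin 2, the closest relative of Thbs1, stood at 27.00, 37.3, 28.2, 46.98 and 31.4 FPKM with the conjugate, 15.9, 21.9, 17.8, 18.8 and 17.6 FPKM in the knockout and 24.4, 17.9, 18.7, 25.9 and 20.6 FPKM with vehicle. Its groups did not overlap directly, with a difference of 0.84 ± 0.15 that did not pass (adjusted p = 0.21). Against vehicle, Thbs2 rose with the conjugate (0.63, adjusted p = 0.0215), and in the knockout it did not pass (-0.21, adjusted p = 0.341). Myoc, which encodes the secreted glycoprotein myocilin, stood at 10.3, 9.17, 11.9, 10.9 and 9.34 FPKM with the conjugate, 3.74, 4.04, 5.97, 6.71 and 5.64 FPKM in the knockout and 5.16, 3.66, 4.43, 5.96 and 5.23 FPKM with vehicle. All 5 conjugate libraries lay above all 10 others, with a direct difference of 0.88 ± 0.15 (adjusted p = 0.148, and 0.0812 with the replicate block). Igfbp3, a carrier of insulin-like growth factors in tissue and blood, stood at 39.5, 35.98, 42.9, 40.4 and 28.2 FPKM with the conjugate, 27.3, 19.4, 25.6, 23.4 and 20.6 FPKM in the knockout and 24.6, 20.8, 24.02, 16.8 and 18.7 FPKM with vehicle. It too was highest in the 5 conjugate libraries, with a direct difference of 0.66 ± 0.13 (adjusted p = 0.552) and a rise against vehicle of 0.80 (adjusted p = 0.00435). Of the 31 tested genes of fibrillar collagens and matrix, 1 was higher directly, namely Thbs1, none was lower and 30 did not pass, with a median difference of 0.17 against 0.00 over all genes. That median stayed above 0 under each scaling, between 0.136 and 0.187, and was -0.116 with the muscle and B cell scores as terms. Of the other genes with small p, Vill, a villin-like actin-binding protein, averaged 4.03 ± 0.967 FPKM with the conjugate and 2.16 ± 0.402 FPKM in the knockout, and Cux2, a homeobox transcription factor, 1.33 ± 0.719 FPKM with the conjugate and 0.267 ± 0.181 FPKM in the knockout. Cux2 was at most 0.581 FPKM in the knockout and passed the filter through conjugate and vehicle libraries only. Its lower place in the knockout follows in part from that filter. Map1a, a microtubule-associated protein, averaged 8.46 ± 3.19 FPKM with the conjugate and 3.67 ± 1.48 FPKM in the knockout, and Olfm2, a secreted olfactomedin, 9.34 ± 3.09 FPKM with the conjugate and 3.69 ± 1.57 FPKM in the knockout. All 4 had an adjusted p of 0.558 to 0.563.

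**Figure D3:**
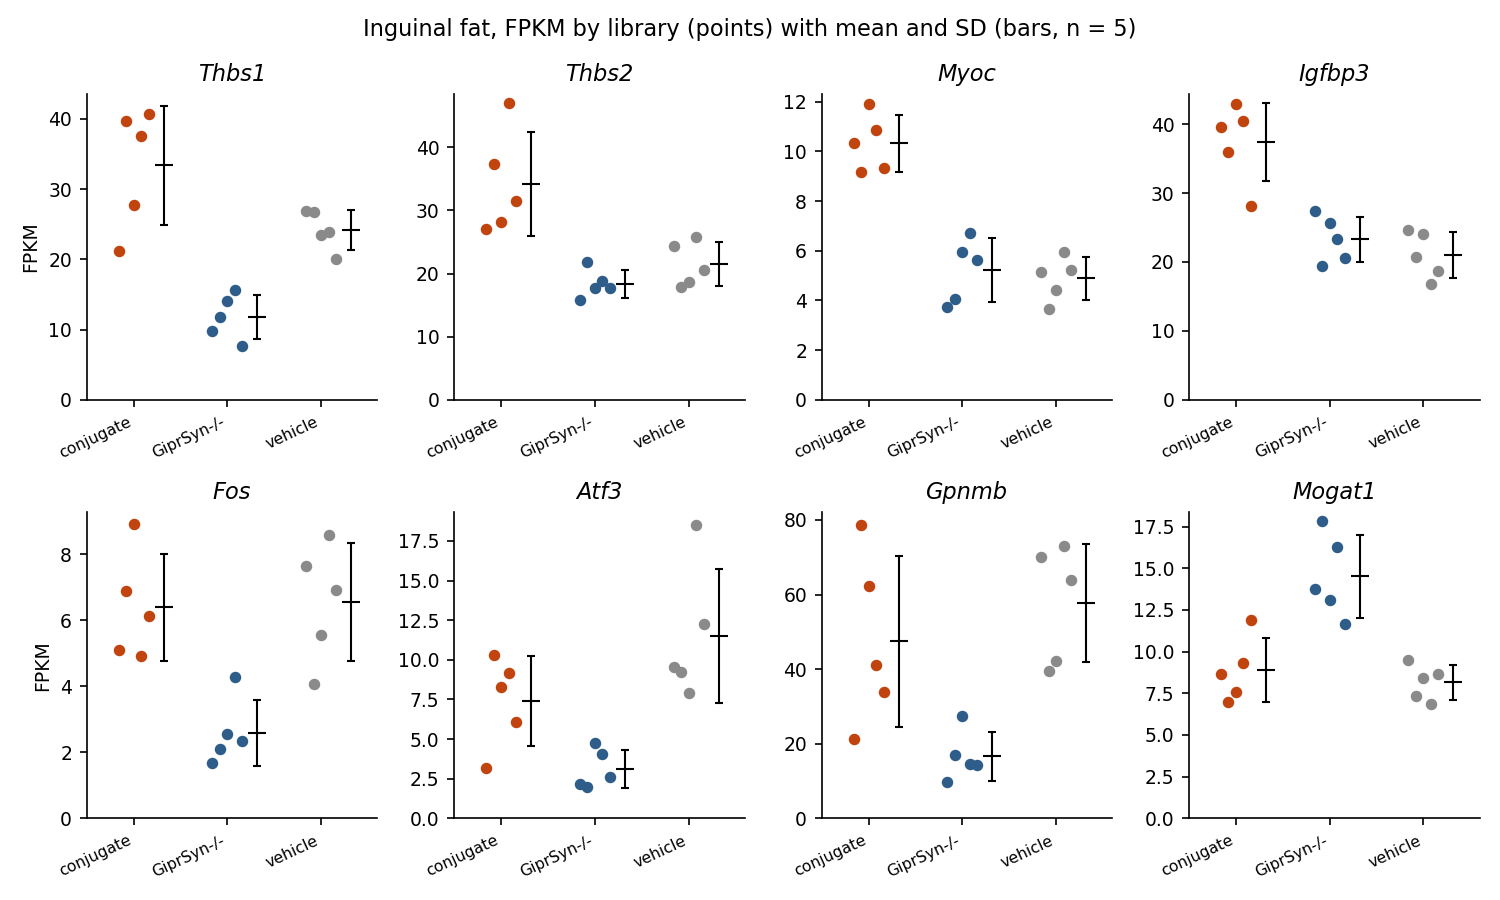
FPKM of 8 genes in each library of the conjugate, GiprSyn-/- and vehicle groups (points), with the group mean and SD beside them (n = 5). Conjugate and knockout points do not overlap for Thbs1, Thbs2, Myoc, Igfbp3 and Fos, and overlap for Atf3, Gpnmb and Mogat1. For Thbs1 all 5 knockout points lie below all 10 others, and for Myoc and Igfbp3 all 5 conjugate points lie above all 10 others.

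Immediate early genes, which cells transcribe within minutes of a stimulus or of handling, were among the lists with the largest shift. Of 14 tested members none passed directly, 13 had a positive difference, and the median was 0.48 compared with 0.00 over all genes. A positive difference was found for 6930 of all 13604 genes. Fos, a subunit of the AP-1 transcription factor, stood at 5.10, 6.88, 8.92, 4.93 and 6.14 FPKM with the conjugate, 1.68, 2.09, 2.56, 4.29 and 2.35 FPKM in the knockout and 7.66, 4.06, 5.56, 8.58 and 6.93 FPKM with vehicle. Its groups did not overlap directly, and the difference of 1.05 ± 0.21 did not pass (adjusted p = 0.45), whereas the fall in the knockout against vehicle did (-1.08, adjusted p = 0.00599). Atf3, a stress-induced repressor of the ATF/CREB family, stood at 3.19, 10.3, 8.27, 9.14 and 6.06 FPKM with the conjugate, 2.16, 1.97, 4.74, 4.05 and 2.63 FPKM in the knockout and 9.55, 9.24, 7.87, 18.5 and 12.3 FPKM with vehicle. Conjugate replicate 1 fell into the knockout range for Atf3, and the direct difference was 0.999 ± 0.28 (adjusted p = 0.613). The summed level of the list was highest in replicate 5 of each group, 329 FPKM with the conjugate and 289.8 FPKM in the knockout, so that the deeper libraries stood apart here. With the estimated depth as a term the median of the list was 0.563, and without conjugate replicate 5 it was 0.215.

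The promoters of Fos and Atf3 are shown because Fos and Atf3 had the smallest p of the immediate early genes and hold the same short element, a choice made after values were seen. The sequences are those of RefSeq on GRCm38.p6, from 250 bases before to 50 after the annotated start, read 5′ to 3′ on the strand of the gene, and the build behind the deposited values is not stated. Capitals mark TGACGT or its reverse complement ACGTCA, the core of the cAMP response element known to be bound by CREB and ATF proteins. Fos lies on the plus strand of chromosome 12 (chr12:85473640-85473939) and Atf3 on the minus strand of chromosome 1 (chr1:191183284-191183583).
Fos: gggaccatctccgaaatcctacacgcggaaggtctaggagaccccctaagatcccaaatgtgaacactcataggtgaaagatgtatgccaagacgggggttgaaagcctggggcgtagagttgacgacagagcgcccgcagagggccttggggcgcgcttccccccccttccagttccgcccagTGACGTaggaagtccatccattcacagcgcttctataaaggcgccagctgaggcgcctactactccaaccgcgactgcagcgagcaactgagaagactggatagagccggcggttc
Atf3: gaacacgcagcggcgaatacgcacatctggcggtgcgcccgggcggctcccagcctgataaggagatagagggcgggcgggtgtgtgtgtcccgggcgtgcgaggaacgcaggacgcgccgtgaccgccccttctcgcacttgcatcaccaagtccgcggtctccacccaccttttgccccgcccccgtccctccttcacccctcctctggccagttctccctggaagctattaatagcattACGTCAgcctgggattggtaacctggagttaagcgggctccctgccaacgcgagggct
The element lies 66 to 61 bases before the start of Fos and 8 to 3 bases before that of Atf3. Searched on both strands, it was found for 5 of the 11 tested immediate early genes with a promoter in the table, 45.5%, compared with 12.8% of all 10211 tested genes with one. A match describes letters in this window and is no measure of binding.

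Many markers of lipid-laden macrophages stood higher with the conjugate than in the knockout, though none passed directly. Of 19 tested markers of lipid-associated macrophages, the cells that gather around dying adipocytes, 17 had a positive difference with a median of 0.35, and the largest was 2.14. Over all genes, 6930 of 13604 had a positive difference. Against vehicle, 4 of the 19 fell with the conjugate and 14 fell in the knockout, compared with 2.76% and 5.67% of all genes. The summed level of the list, which its abundant members dominate, nevertheless overlapped, at 3829.6, 6744, 6088, 5971 and 5238 FPKM in the conjugate libraries and 5020.5, 5175, 6008, 7079.6 and 3589 FPKM in the knockout libraries. All 10 sums lay below the 8582 to 9905 FPKM of the vehicle libraries, and the lowest of each group, conjugate replicate 1 and knockout replicate 5, were libraries rich in B cell transcripts. The list shares Lpl with adipocyte identity, and Cd36, Fabp5 and Plin2 with the lists of fatty acid uptake and lipid droplets. Lpl averaged below vehicle in both groups, as given below, so the sums do not measure macrophages alone. Mmp12, the macrophage elastase, stood at 11.1, 79.04, 44.2, 35.2 and 12.7 FPKM with the conjugate, 5.73, 1.55, 16.6, 16.1 and 1.53 FPKM in the knockout and 51.2, 66.3, 37.05, 91.7 and 59.8 FPKM with vehicle. Conjugate replicates 1 and 5 lay in the knockout range and the rest above it, for a direct difference of 2.14 ± 0.62 (adjusted p = 0.614). Gpnmb, a lysosomal glycoprotein of lipid-laden macrophages, averaged 47.4 ± 22.9 FPKM with the conjugate, 16.6 ± 6.59 FPKM in the knockout and 57.7 ± 15.8 FPKM with vehicle (SD, n = 5 each). The knockout fell against vehicle by 1.76 (adjusted p = 0.00514) and the conjugate did not pass (-0.37, adjusted p = 0.492), while the direct difference of 1.39 ± 0.32 did not pass either (adjusted p = 0.563). Clec4d, a C-type lectin of activated macrophages, was below 1 FPKM in all 5 knockouts, at most 0.406 FPKM, and reached 0.552 to 2.10 FPKM with the conjugate. It passed the filter through conjugate and vehicle libraries only, so its lower place in the knockout follows in part from the filter. The 17 tested markers of resident macrophages had a median of 0.27, and the one with the smallest p, Stab1, a scavenger receptor, averaged 21.2 ± 3.67 FPKM with the conjugate and 15.2 ± 4.75 FPKM in the knockout (0.50 ± 0.20, adjusted p = 0.812). Ctsd, cathepsin D of the lysosome, is a member that fell in both groups against vehicle and differed directly by 0.14 ± 0.21, with an interval of -0.32 to 0.59.

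Several genes of lipid metabolism with small p leaned lower with the conjugate than in the knockout, and none passed. They were named from their lists or, for Slc16a1, from the genes with the smallest p of all. They are grouped by direction, and their lists did not all lean that way. Differences were positive for 5 of 19 tested genes of fatty acid synthesis, 9 of 18 of glyceride synthesis and 12 of 19 of lipolysis. Fitm1 of the glyceride list was 0.80 ± 0.23 higher (adjusted p = 0.613, limma), at 0 to 1.77 FPKM with the conjugate and at most 0.293 FPKM in the knockout. Fitm1 passed the filter through conjugate and vehicle libraries only, so its lower place in the knockout follows in part from the filter. Adcy4 of the lipolysis list, given below, was also higher. Mogat1, a monoacylglycerol acyltransferase of triglyceride synthesis, stood at 8.69, 6.95, 7.59, 9.33 and 11.9 FPKM with the conjugate, 13.7, 17.8, 13.1, 16.3 and 11.7 FPKM in the knockout and 9.47, 7.33, 8.42, 6.88 and 8.66 FPKM with vehicle. Conjugate replicate 5 just reached the lowest knockout, the direct difference was -0.66 ± 0.14 (adjusted p = 0.558), and the knockout rose against vehicle by 0.75 (adjusted p = 0.00541). Slc16a1, the monocarboxylate transporter MCT1 for lactate and ketone bodies, stood at 6.52, 6.89, 7.34, 6.60 and 6.35 FPKM with the conjugate, 11.5, 9.60, 8.21, 10.2 and 8.95 FPKM in the knockout and 12.9, 13.6, 10.03, 10.8 and 10.5 FPKM with vehicle. Its 5 conjugate libraries lay below all 10 others, with a narrow direct difference of -0.46 ± 0.10 (adjusted p = 0.563) and a fall against vehicle of 0.69 (adjusted p = 0.00194). Acaca, acetyl-CoA carboxylase of fatty acid synthesis, averaged 17.98 ± 2.90 FPKM with the conjugate and 26.6 ± 4.84 FPKM in the knockout, a difference of -0.54 ± 0.15 (adjusted p = 0.613). Hcar2, the adipocyte receptor for the ketone body beta-hydroxybutyrate, averaged 10.8 ± 2.31 FPKM with the conjugate and 17.2 ± 3.77 FPKM in the knockout (-0.62 ± 0.16, adjusted p = 0.581). Adrb3, the beta-3 adrenergic receptor of adipocytes, stood at 66.9, 16.3, 19.3, 29.7 and 70.6 FPKM with the conjugate, 51.7, 136, 70.3, 41.4 and 95.1 FPKM in the knockout and 10.98, 15.4, 18.2, 4.01 and 10.5 FPKM with vehicle. The knockout rose against vehicle by 2.65 (adjusted p = 0.0039), the conjugate value of 1.58 lay at the threshold (adjusted p = 0.0505), and the direct interval ran -2.04 to -0.08. Cyp2e1, a cytochrome P450 of liver and fat, was named from the list of liver markers. It did not overlap directly, with 281, 67.6, 87.5, 155 and 209.6 FPKM under the conjugate and 386, 549, 297, 351 and 369 FPKM in the knockout. Its difference of -1.44 ± 0.55 did not pass (adjusted p = 0.812).

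Of further genes with the smallest p of their lists, Metrnl, Adcy4, Pdgfrb and Pkm stood higher and Pnpla3 and Cish lower with the conjugate than in the knockout, and none passed. Metrnl, a secreted meteorin-like factor, stood at 19.9, 34.6, 33.9, 29.6 and 25.9 FPKM with the conjugate and 13.9, 18.1, 27.8, 15.6 and 16.7 FPKM in the knockout, a difference of 0.63 ± 0.21 (adjusted p = 0.812). Adcy4, an adenylyl cyclase that makes cAMP, stood at 11.7, 12.1, 15.2, 12.7 and 13.7 FPKM with the conjugate and 7.31, 10.2, 11.6, 8.02 and 8.74 FPKM in the knockout, which did not overlap (0.48 ± 0.13, adjusted p = 0.613). Pdgfrb, the PDGF receptor of mural cells and progenitors, averaged 33.05 ± 7.68 FPKM with the conjugate, 23.97 ± 6.20 FPKM in the knockout and 42.6 ± 7.35 FPKM with vehicle, and fell in the knockout against vehicle (adjusted p = 0.0133). Pkm, pyruvate kinase of glycolysis, averaged 175 ± 26.4 FPKM with the conjugate and 133 ± 22.1 FPKM in the knockout, for an interval of 0.11 to 0.68. Pnpla3, a lipid droplet hydrolase induced by feeding, averaged 52.7 ± 21.8 FPKM with the conjugate, 86.1 ± 20.3 FPKM in the knockout and 125 ± 28.1 FPKM with vehicle, and its direct interval ran -1.41 to -0.18. Cish, a suppressor of cytokine signalling induced by growth hormone, stood at 4.46, 2.75, 1.77, 1.28 and 3.16 FPKM with the conjugate and 1.49, 19.3, 7.27, 4.36 and 10.04 FPKM in the knockout, and the groups overlapped widely at an interval of -2.03 to -0.18.

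The genes that follow departed from vehicle in both groups, and none of them passed directly. Those named here were chosen, after values were seen, as the list members called against vehicle in each of the 2 groups with the largest departures, so their departures are a description and their direct differences carry the information. Gpx3, a secreted glutathione peroxidase, stood at 397, 248, 351, 511 and 434 FPKM with the conjugate, 162, 364, 251, 187 and 287 FPKM in the knockout and 96.1, 79.6, 66.4, 85.96 and 79.03 FPKM with vehicle. Every conjugate and every knockout library lay above every vehicle library, while the conjugate exceeded the knockout by 0.65 ± 0.22 without passing (adjusted p = 0.812). Pck1, which makes the glycerol backbone for triglyceride re-esterification, stood at 729, 408, 558, 649 and 962 FPKM with the conjugate, 508, 934, 824, 743 and 693 FPKM in the knockout and 249, 173, 466, 185 and 256 FPKM with vehicle. All 5 knockout libraries and 4 of the 5 conjugate libraries lay above every vehicle library, and the direct difference was -0.19 ± 0.27, with an interval of -0.77 to 0.39. Cfd, complement factor D or adipsin, an adipocyte secretory product low in obese mice, averaged 2796 ± 1910.0 FPKM with the conjugate, 3358 ± 2315 FPKM in the knockout and 415 ± 253 FPKM with vehicle. Single libraries of both groups varied widely for Cfd, so its direct interval of -1.49 to 1.04 covers large differences either way.

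The complement genes C2 and C7 rose in both groups against vehicle. C2 stood at 45.5, 31.3, 34.3, 57.6 and 56.1 FPKM with the conjugate, 59.5, 73.3, 58.3, 65.6 and 65.8 FPKM in the knockout and 19.2, 20.2, 21.6, 23.1 and 20.4 FPKM with vehicle. The 3 groups did not overlap, in the order knockout, conjugate, vehicle, though the direct difference of -0.55 ± 0.15 did not pass (adjusted p = 0.613). C7 averaged 61.96 ± 21.5 FPKM with the conjugate and 72.4 ± 11.9 FPKM in the knockout, for a direct interval of -0.66 to 0.12. Slc2a4, the insulin-responsive glucose transporter GLUT4, rose by 0.72 with the conjugate and 0.52 in the knockout against vehicle, with a direct interval of -0.13 to 0.52.

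**Figure D4:**
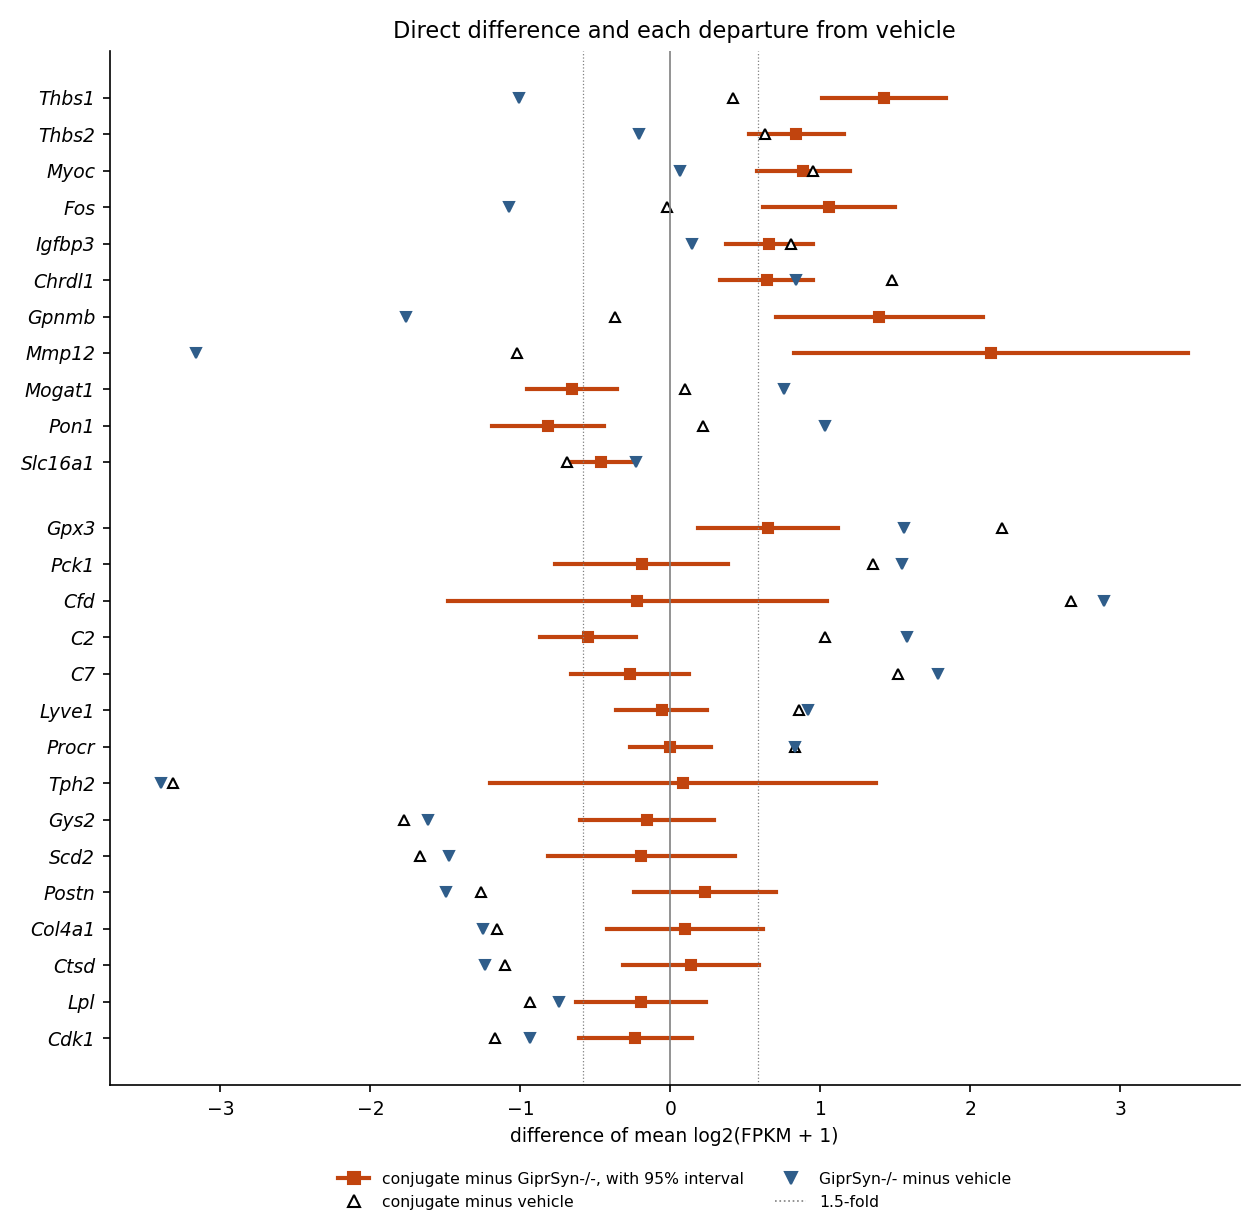
Difference between the conjugate and GiprSyn-/- groups (squares, with the 95% interval as a line) and of each group from vehicle (triangles) in log2(FPKM + 1), for genes with small p in the direct comparison (upper block) and genes called against vehicle in both groups (lower block). In the lower block both triangles lie on the same side, by selection, and most of the 95% intervals of the direct difference cross 0, the exceptions being Gpx3 and C2.

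Genes of sterol and fatty acid synthesis included many falls against vehicle in each group and no direct call. Of all genes, 2.76% fell and 4.26% rose with the conjugate against vehicle, and 5.67% fell and 6.61% rose in the knockout. Of 24 tested genes of cholesterol synthesis and uptake, 11 fell with the conjugate and 13 in the knockout against vehicle. Directly none of the 24 passed, with a median of 0.03 and differences from -0.18 to 0.41. The direct interval lay within 2-fold for 22 of the 24, near the 90.1% of all genes. Nsdhl, a sterol dehydrogenase of the pathway, gave 14.9 ± 5.91 FPKM with the conjugate, 16.9 ± 6.73 FPKM in the knockout and 41.1 ± 7.02 FPKM with vehicle. The list of fatty acid synthesis had 19 tested genes, of which 9 were lowered and 2 raised under the conjugate and 7 lowered and 2 raised in the knockout, Elovl3 counted in both, and none passed directly, with a median of -0.10. Scd2, a stearoyl-CoA desaturase, stood at 38.2, 81.6, 58.3, 34.5 and 21.3 FPKM with the conjugate, 50.7, 35.96, 64.2, 68.9 and 33.4 FPKM in the knockout and 136, 153, 111, 148 and 140.3 FPKM with vehicle. Elovl3, an elongase of very long fatty acids known from cold-activated fat, was at or below 0.665 FPKM with the conjugate and 0.913 FPKM in the knockout, and at 3.61, 1.62, 4.37, 2.78 and 3.24 FPKM with vehicle. It reached 1 FPKM in the vehicle libraries only and was tested because of them, so that its place below vehicle follows from the filter and no direct difference is read so near 0. Gys2, a glycogen synthase best known from liver, stood at 4.39, 6.78, 5.28, 3.16 and 4.57 FPKM with the conjugate, 5.95, 3.74, 6.31, 8.82 and 3.46 FPKM in the knockout and 18.5, 23.2, 14.8, 18.9 and 18.3 FPKM with vehicle. The 10 libraries of both groups lay below all vehicle libraries for Scd2 and Gys2, and their direct intervals ran -0.82 to 0.43 and -0.61 to 0.29.

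Genes of fatty acid uptake and storage had no direct call either. Of 16 tested genes of lipoprotein lipase control and fatty acid uptake, 6 fell and 1 rose with the conjugate and 7 fell in the knockout. Over all genes, 2.76% fell and 4.26% rose with the conjugate, and 5.67% fell in the knockout. The direct median of the list was 0.09 with no call. Lpl, lipoprotein lipase itself, averaged 1473 ± 363 FPKM with the conjugate, 1693 ± 444 FPKM in the knockout and 2759 ± 204 FPKM with vehicle, and its direct interval was -0.63 to 0.24. Angptl8, an insulin-induced regulator of the lipase, stood at 1.96, 7.73, 5.15, 0.718 and 1.99 FPKM with the conjugate, 0.842, 3.40, 4.23, 0.673 and 1.83 FPKM in the knockout and 24.4, 8.14, 8.41, 11.4 and 18.8 FPKM with vehicle. All 10 lay below the lowest vehicle library, and the direct difference was 0.40 ± 0.45. Plin2, a lipid droplet coat protein, averaged 272 ± 69.8 FPKM with the conjugate, 210.3 ± 66.2 FPKM in the knockout and 472 ± 67.2 FPKM with vehicle (0.38 ± 0.23 directly). Tph2, a tryptophan hydroxylase of serotonin synthesis known from the brain, stood at 0.345, 8.66, 6.59, 1.33 and 1.40 FPKM with the conjugate, 2.65, 0.679, 5.36, 8.24 and 0.149 FPKM in the knockout and 30.8, 40.5, 19.05, 47.7 and 40.5 FPKM with vehicle. Tph2 fell by 3.31 with the conjugate and 3.40 in the knockout on the log2 scale and varied so much among their libraries that the direct interval ran -1.20 to 1.37.

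Some matrix genes fell and some myelin genes rose against vehicle in each group, and apart from Thbs1 none passed directly. Of the 31 matrix genes, 11 fell, 2 rose and the rest did not pass with the conjugate against vehicle, where 2.76% of all genes fell. In the knockout 16 of the 31 fell, where 5.67% of all genes did. Postn, the matricellular protein periostin, stood at 49.3, 99.00, 78.04, 76.3 and 76.7 FPKM with the conjugate, 68.4, 58.6, 71.4, 96.3 and 35.8 FPKM in the knockout and 178, 173, 174, 224 and 156 FPKM with vehicle, for a direct difference of 0.23 ± 0.22. Col4a1, a collagen chain of the basement membrane, averaged 178 ± 58.9 FPKM with the conjugate, 166 ± 52.6 FPKM in the knockout and 389.6 ± 89.5 FPKM with vehicle (0.10 ± 0.24 directly). Of 18 tested genes of Schwann cells and myelin, 10 rose with the conjugate, 10 rose and 2 fell in the knockout, and none passed directly, where 4.26% of all genes rose with the conjugate and 6.61% in the knockout. The direct median of the list was 0.03. The resident macrophage gene Lyve1, a hyaluronan receptor, rose by 0.86 with the conjugate and 0.92 in the knockout, and its direct interval of -0.36 to 0.24 lies within 1.5-fold. Procr, the protein C receptor that marks progenitors, averaged 30.1 ± 4.16 FPKM with the conjugate, 30.2 ± 5.02 FPKM in the knockout and 16.5 ± 2.20 FPKM with vehicle, with a direct interval of -0.27 to 0.27. Cdk1, the kinase that drives mitosis, averaged 4.67 ± 1.30 FPKM with the conjugate, 5.67 ± 1.45 FPKM in the knockout and 11.6 ± 1.64 FPKM with vehicle, and its direct interval was -0.61 to 0.14.

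Across the 48 lists, drawn with earlier results of these data known, only that of matrix genes held a direct call. Adipocyte identity genes had a direct median of 0.02, nuclear oxidative phosphorylation subunits of 0.00, citric acid cycle genes of -0.02, glyceride synthesis genes of 0.00 and thermogenic genes of 0.02, against 0.00 over all genes. For all 18 tested genes of the citric acid cycle the direct interval lay within 1.5-fold, and for 36 of the 46 oxidative phosphorylation genes. The share over all genes was 68.9%. Ucp1, the uncoupling protein of thermogenic fat, was near the floor with 1.12, 1.23, 1.94, 0.700 and 2.63 FPKM under the conjugate and 0.334, 0.593, 0.193, 0.525 and 0.187 FPKM in the knockout, which did not overlap, and its difference of 0.85 ± 0.23 did not pass (adjusted p = 0.613). Ucp1 passed the filter through conjugate and vehicle libraries only, so its lower place in the knockout follows in part from the filter. The medians farthest from 0 belonged to muscle and lymphoid genes. The 13 tested skeletal muscle genes had a median of 2.63 and 11 an unadjusted p under 0.05, as had 5.66% of all genes. None of the 13 passed after adjustment. Ckm, the muscle creatine kinase, stood at 106, 32.1, 74.5, 1.44 and 118 FPKM with the conjugate and 7.97, 6.12, 11.4, 0.981 and 0.172 FPKM in the knockout. B cell, lymph node stroma and T cell genes had medians of -1.03, -0.94 and -0.80, and without conjugate replicate 1 and knockout replicates 1 and 5 the first 2 were -0.61 and -0.67. With the muscle score as a term the muscle median was 0.00, as that term is made from the same genes.

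**Figure D5:**
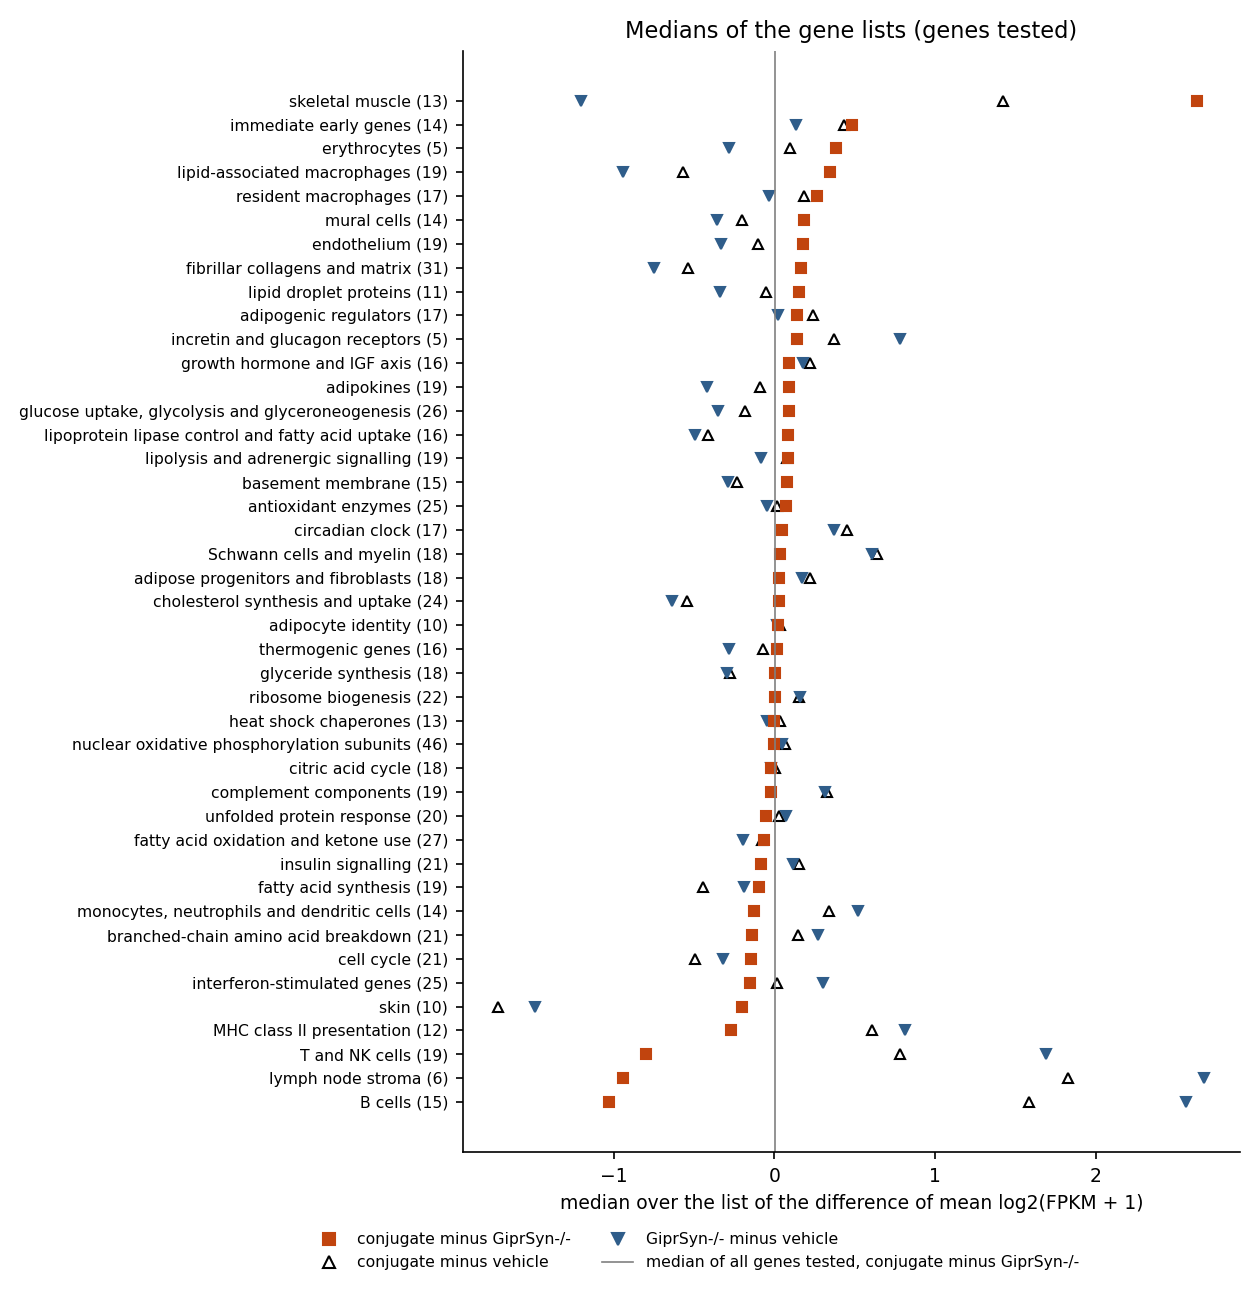
Median difference of each gene list with at least 5 genes tested (number in parentheses), in log2(FPKM + 1), for the conjugate against GiprSyn-/- (squares) and for each against vehicle (triangles), ordered by the direct median. Direct medians lie between -0.27 and 0.48 but for skeletal muscle at 2.63 and for T cells, lymph node stroma and B cells at -0.80, -0.94 and -1.03.

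The Glp1r line offers the same kind of comparison in other mice, Glp1rfl/fl given the conjugate against Glp1rWnt1-/- given vehicle, with 5 libraries each and none shared. There 17 of 12686 genes passed (0.134%), 16 (0.126%) higher and 1 (0.00788%) lower with the conjugate, and 1332 had an unadjusted p under 0.05. None of the 17 passed in the Gipr line (limma), and 13 had a positive difference there, as had 6930 of all 13604 genes. The 13 include AA914427, the 1 gene lower in the Glp1r line, at 0.0024 in the Gipr line and -1.22 in the Glp1r line. The count of 17 was 0 with the replicate block, between 0 and 73 with 1 library left out, and 1570 with the B cell score as a term, so it depended strongly on the fit. Whether replicate numbers pair the libraries of the Glp1r line was not checked. Chrdl1, a secreted antagonist of bone morphogenetic proteins, differed by 1.29 in the Glp1r line (adjusted p = 0.0128). In the Gipr line it stood at 32.5, 41.7, 36.9, 55.5 and 48.9 FPKM with the conjugate, 22.9, 32.7, 23.98, 30.1 and 25.3 FPKM in the knockout and 15.1, 14.5, 11.5, 16.6 and 15.6 FPKM with vehicle, a direct difference of 0.64 ± 0.15 (adjusted p = 0.563). Only the lowest conjugate and the highest knockout library crossed, by a small margin. Gpx3 differed by 1.17 in the Glp1r line (adjusted p = 0.0424) and by 0.65 in the Gipr line. Fgf2, a fibroblast growth factor, differed by 0.85 in the Glp1r line and -0.06 in the Gipr line. Thbs1 stood at 23.9, 21.3, 33.3, 57.9 and 59.3 FPKM with the conjugate and 14.3, 16.1, 21.9, 23.4 and 42.2 FPKM in Glp1rWnt1-/- fat, which overlapped, with a difference of 0.68 ± 0.37 that did not pass (adjusted p = 0.572). Tested as an interaction over the 30 fat libraries, no gene differed between the lines at an adjusted p under 0.05 (limma), and 565 of 13749 (4.11%) did so unadjusted. For Thbs1 the difference between the lines was 0.74 ± 0.43, with an interval of -0.15 to 1.63. For Fgf2 it was -0.90, with an adjusted p of 0.127, which was the smallest adjusted p of the test.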

How the data were processed

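Inguinal fat libraries of the Gipr line (15, in 3 groups of 5) and of the Glp1r line (15) were analysed; the liver libraries were not used here. RNA was extracted with Tri Reagent and finished with isopropanol or an RNeasy column plate, which of these for each sample not being given, and sequenced on a NovaSeq X from TruSeq Stranded mRNA libraries, per the labels' protocols. The deposited values are FPKM per gene symbol, made by the authors with RSEM, per the submitters' processing notes; no version, aligner, build or annotation is named there. FPKM are not counts, so no count model was used. Genes with at least 1 FPKM in at least 5 of the 15 libraries were tested on log2(FPKM + 1) with limma 3.58.1 in R 4.3.3 (empirical Bayes with a mean-variance trend, the 3 groups sharing 1 estimate of the spread, two-sided, Benjamini-Hochberg over all genes tested, called under 0.05). The code was tested on simulated data. The difference between the lines was an interaction over 30 libraries. The depth in fragments was estimated from the steps of the lowest FPKM values against transcript length and is approximate.

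The labels do not say whether a replicate number marks shared handling. From the data, deviations from the group means of same-numbered conjugate and knockout libraries of the Gipr line correlated at 0.707, 0.331, 0.557, 0.656 and 0.400 for numbers 1 to 5. Each of the 5 conjugate libraries correlated best with its own number. The numbers were therefore taken to pair these libraries, and the blocked value is given where it changes a call. A pairing of the vehicle libraries or of the Glp1r line was not checked, though the block was applied to them as well. The 48 gene lists and the genes compared were chosen with earlier results of these data known. Genes were named by a rule: of the called genes, the 12 that rose and the 12 that fell most, up to 4 called members of each list, and up to 2 members with the smallest p of a list with none. The 15 genes with the smallest p and list members called against vehicle in both groups were added after values were seen. Alternatives changed the pseudocount, filter, scaling, weights, added terms and libraries left out. P-values measure the spread between these samples.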

Additional observations from a re-analysis of the deposited data

Results flagged for a closer look

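In 7 of the 112 sets of 5 values examined, 1 library stood apart from the other 4 of its group by a gap larger than Dixon's 95% limit; chance gives about 1 in 20 sets. Conjugate libraries stood apart at 5.72 FPKM for Vill, 80.7 FPKM for Slc2a4 and 0.6648 FPKM for Elovl3. GiprSyn-/- libraries stood apart at 0.5805 FPKM for Cux2 and 0.9127 FPKM for Elovl3. The estimated depth stood apart at 56.69 M fragments in conjugate replicate 5 and 64.24 M in GiprSyn-/- replicate 5, the 2 libraries of the higher number series. Without these 2 libraries, no gene was called between the groups and 687 had an unadjusted p under 0.05 (limma).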

How the results depend on the processing

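The single direct call between conjugate and GiprSyn-/- fat did not hold under most alternatives. No gene was called (0, limma) without the filter, with median-of-ratios or quantile scaling, with the replicate block, with only the 2 groups compared with or without that block, with depth, number series, muscle, or muscle and B cell scores as terms, or without the higher number series, where an unadjusted p under 0.05 was reached by 232 to 2103 genes. Weighting the libraries (array weights) gave 15 calls (7 higher, 8 lower), leaving out the libraries rich in B cell transcripts gave 2 (Thbs1 higher, Gbp11 lower), and leaving out 1 library at a time gave 0 to 2. The muscle terms and the block on 2 groups were chosen after seeing the data. Against vehicle, calls also moved by over 1.5 times with a filter of 5 FPKM (1062 for the knockout), quantile scaling (622 for the conjugate), the muscle score (574 and 920), or at least 1.5-fold besides (521 and 890), and without the higher number series (569 and 977) or the libraries rich in B cell transcripts (755 for the knockout). In the Glp1r line the 17 calls became 5 without the filter, 6 and 4 with median-of-ratios and quantile scaling, 0 with the replicate block, 1860 with array weights, 4 with depth and 1570 with the B cell score as a term, 314 without the libraries rich in B cell transcripts, 1 with only the 2 groups compared, and 0 to 73 with 1 library left out. The difference between the lines had 0 calls (limma) except 438 with array weights and 0 to 4 with 1 library left out. The cause was not tested. The difference in estimated depth, -2.15 M, ranged from -6.86 to 3.92 M with 1 library left out and turned without knockout replicate 5. The difference in mitochondrial share, -1.52 percentage points, ranged from -1.92 to -0.815. Thbs1, Thbs2, Myoc, Igfbp3, Fos, Gpnmb, Mmp12, Mogat1 and Slc16a1 kept their sign in all 34 alternatives each. The replicate block changed no other direct call. The 95% interval of the median gene reached 0.31 (log2) to either side, which limits what 5 libraries a group can show.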
